A study of Homo sapiens with 48 samples.

Results

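The 81 genes described here are the cytosolic ribosomal protein genes of a table of 19102 genes, chosen by symbol: RPL or RPS followed by digits and at most 1 letter, with RPLP0, RPLP1, RPLP2 and RPSA added. By symbol, 49 belong to the large subunit series and 32 to the small subunit series. The choice used no measured value, although it was made with earlier results of these data known. It took in RPS27L, a copy of RPS27 known as a p53 target, and the tissue-restricted copies RPL3L, RPL10L and RPL39L. It left out FAU, whose product is a fusion of a ubiquitin-type domain with a ribosomal protein, and the copies RPL22L1, RPL7L1, RPL26L1 and RPL36AL, which were followed beside the members.

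Polyadenylated RNA was sequenced from A382, an established human glioblastoma line, grown in DMEM with 10% serum. The study removed subunits of the EP400/TIP60 histone acetyltransferase complex one at a time to learn how each bears on the p53 network, and set this beside p53 expression. In the knockout libraries, collected at day 9 after lentiviral delivery of guide RNAs, each target stands against non-targeting guides: BRD8 (2 guides with 2 replicates each) against sgNeg1 (2), H2AZ (2 guides with 2 replicates each) against sgNeg4 (2), TRRAP, TIP60, EP400, GAS41, DMAP1, ING3, MRGBP, ACTL6A, VPS72 and MEAF6 (1 library per guide, 2 guides) against sgNeg2 (2), and MORF4L1, MORF4L2, RUVBL1 and RUVBL2 (likewise 2) against sgNeg3 (2). A second design held cells with a control vector, PCW (2 libraries), and cells with a doxycycline-inducible p53 vector, P53 (2), all given doxycycline for 2 days. Every library comes from this line in culture. MEAF6 guide 2 and VPS72 guide 2 have identical columns, so both were left out and 46 of 48 columns were used. The labels do not state that replicates were separate cultures, and p-values therefore measure only how far these libraries spread, a spread that may be technical.

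Each ribosome carries 1 copy of nearly every ribosomal protein, so cells make these proteins in matched amounts. Most of their mRNAs begin with a C followed by a run of pyrimidines, the terminal oligopyrimidine (TOP) motif, through which mTOR and the RNA-binding protein LARP1 control their translation and stability together. MYC is a known activator of ribosome production. RPL5 and RPL11, bound to the 5S rRNA, can bind MDM2 and so release p53 when ribosome assembly is disturbed, and RPL23 and RPL26 also act on the MDM2 and p53 pair.

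The first bases of members that stand out below are shown because the TOP motif is the sequence feature for which the family is known. Of the 81 members, 64 had an entry among RefSeq promoter windows (build GRCh38.p14), and 17 had none. Each line gives 30 bases, 15 before and 15 from the annotated transcript start, on the strand of the gene. Capitals mark a C followed by at least 4 pyrimidines that begins within 5 bases of that start. RPS12 and RPL28 had the largest rises in BRD8 knockout, and RPS19 and RPL36 were higher in p53 induction. RPS25, RPL35A, RPL4 and RPL41 were among the largest falls there. RPL36A (-1.46) and RPL17 (-1.17) were also among those falls and are not shown. RPL36A has such a run and RPL17 has none.
RPS12, chr6:132814554-132814583, + strand: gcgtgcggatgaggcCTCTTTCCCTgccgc
RPL28, chr19:55385917-55385946, + strand: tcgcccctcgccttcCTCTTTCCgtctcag
RPS19, chr19:41860240-41860269, + strand: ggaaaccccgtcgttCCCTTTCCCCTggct
RPL36, chr19:5690280-5690309, + strand: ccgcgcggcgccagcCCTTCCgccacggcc
RPS25, chr11:119018329-119018358, - strand: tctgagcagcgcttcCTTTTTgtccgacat
RPL35A, chr3:197950175-197950204, + strand: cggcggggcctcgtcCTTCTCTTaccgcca
RPL41, chr12:56116618-56116647, + strand: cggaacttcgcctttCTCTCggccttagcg
RPL4, chr15:66504841-66504870, - strand: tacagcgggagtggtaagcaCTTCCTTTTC
RPS27L, chr15:63157463-63157492, - strand: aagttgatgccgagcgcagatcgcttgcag
In 6 of the first 7 lines the run is 6 or more bases long, in RPL4 it begins 5 bases after the annotated start, and RPS27L has none in this window. Such a run began exactly at an annotated start in 46 of 64 members (71.9%) and in 5.14% of all 27305 genes of the promoter set. Within 5 bases of an annotated start the shares were 53 of 64 (82.8%) and 25.2%. A gene with several annotated starts counted if any of them had the run. A letter match is a description and does not show regulation.

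Members were among the most abundant mRNAs. FPKM is the number of fragments scaled by transcript length and library depth, so levels of different genes can be set side by side within a library. In the sgNeg2 pair, 22 members exceeded 1000 FPKM, 40 stood between 100 and 1000 and 16 below 100, and 41 of the 100 highest genes were members. RPL37A, a small protein of the large subunit, led with a mean of 4200 FPKM, followed by RPL8 (2280), RPS14 (2130) and RPL30 (2050). At the other end, RPL10L was listed at 0 in all libraries, RPL39L reached at most 0.134 and RPL3L, the muscle copy of RPL3, at most 0.162 FPKM.

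Empty columns divide the table into 5 sections, each with its own controls, and the values of sections were normalized separately. Members made up 24.5% to 28.1% of the summed FPKM of a library where BRD8 and sgNeg1 were measured, 10% to 16% with sgNeg2, 13.2% to 17% with sgNeg3, 14% to 16.6% with sgNeg4 and 12.8% to 16.5% with doxycycline. Judged from the steps between low values, a level of 1 FPKM meant between 4.22 and 21.1 fragments on each kilobase. VIM, a mesenchymal and glial filament, was high throughout (1340 and 1320 FPKM in sgNeg1). The astrocyte and oligodendrocyte markers GFAP and OLIG2 and the immune marker PTPRC stayed near 0. They reached at most 0.206, 0.0325 and 0.097 FPKM in the sgNeg1, BRD8, PCW and P53 libraries. The other neural and glioma markers followed were split. In the sgNeg2 pair CD44, SOX2 and EGFR averaged 361, 35.1 and 13.5 FPKM, while NES averaged 0.418. The targeted mRNA stood between 18.5% (H2AFZ) and 103% (MORF4L1) of its control in the knockouts.

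A group of 10 members held a share of the members' summed FPKM over 10 times higher in the section of sgNeg1 and BRD8 than elsewhere. RPS27, a zinc-finger protein of the small subunit, ranged from 1140 to 1400 FPKM in that section and from 0.354 to 4.11 in the 40 other libraries. RPS28 ranged from 592 to 941 against 0 to 1.73, and RPL21 from 341 to 539 against 0 to 1.17. These ranges are far apart, in control and knockout libraries alike. RPL36A (296 to 394 against 1.73 to 7.07), RPL9 (673 to 866 against 9.98 to 44.1), RPS26 (99.8 to 151 against 2.09 to 13), RPL7 (655 to 902 against 27.5 to 77.3) and RPL41 (522 to 756 against 31.1 to 121) behaved likewise. The other 68 expressed members had share ratios between 0.329 and 6.99. Ribosomal protein genes have many processed pseudogenes, whose near-identical sequence makes their values depend on how reads were assigned; the 10 members had a median of 16 annotated pseudogenes and the 68 a median of 8.5. The part of these copies in the difference was not tested. Levels are therefore compared within a section only.

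**Figure D1:**
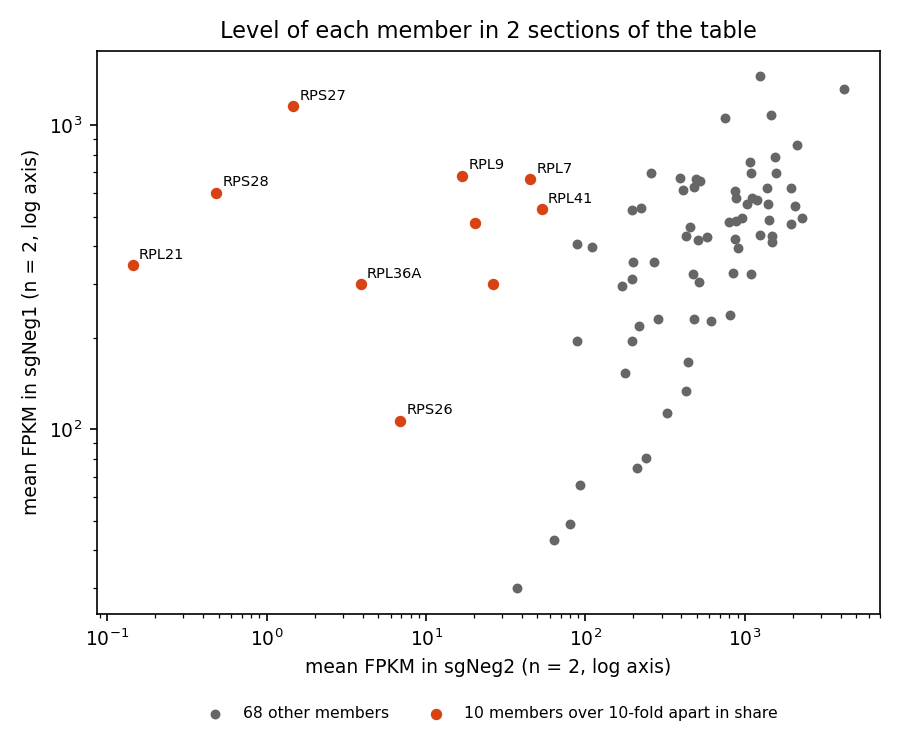
Mean FPKM of each expressed member in the sgNeg1 pair (vertical, log axis) and the sgNeg2 pair (horizontal, log axis), 1 point per gene. The 10 members in orange lie to the left of most other members with a like level in sgNeg1: RPS27, for example, averaged above 1000 in sgNeg1 and stayed below 5 outside that section.

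Most members fell when p53 was induced. The p53 targets MDM2 and CDKN1A rose by 2.36 and 1.66 on the log2 scale. Of 76 members tested, 67 fell and 3 rose (limma, adjusted p under 0.05), where 46.7% of all 12203 tested genes were called lower and 37.6% higher. The median log2 fold change of FPKM + 1 was -0.64 over members and -0.13 over all genes. Large subunit members had 41 lower and 1 higher of 45, and small subunit members 26 lower and 2 higher of 31, with medians of -0.64 and -0.66. In RNA from bulk cultures, fewer cells of a type and less RNA per cell cannot be told apart.

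The largest falls reached about -1 or beyond on the log2 scale. RPL4, a core protein near the exit tunnel, had 1050 and 1040 FPKM in PCW against 507 and 486 in P53 (-1.07 ± 0.043 SE; limma adjusted p = 4.22e-07). RPS25, which lies on the small subunit head, had 635 and 613 against 298 and 296 (-1.07 ± 0.041; adjusted p = 3.68e-07). RPL35A, a gene mutated in Diamond-Blackfan anaemia, had 1500 and 1540 against 762 and 722 (-1.04 ± 0.047). In all 3, both P53 libraries lay far below both controls. RPL17 had 129 and 121 against 54.9 and 55 (-1.17 ± 0.050), RPS27A, a ubiquitin fusion, 588 and 548 against 307 and 260 (-1.0 ± 0.080), and RPL14 328 and 317 against 161 and 175 (-0.94 ± 0.051). RPL17 shares its locus with a readthrough gene and is uncertain for that reason. RPL41, the shortest ribosomal protein, had 72.3 and 80.5 against 31.1 and 33.7 (-1.21 ± 0.067), and RPL36A 6.56 and 7.07 against 1.73 and 1.94 (-1.46 ± 0.085). Both belong to the 10 members with uneven levels. Without those 10, 61 of 68 fell and 3 rose.

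Members with known ties to p53 fell as well. RPL5 had 496 and 505 FPKM in PCW against 275 and 283 in P53 (-0.84 ± 0.041; adjusted p = 1.1e-06), and RPL11 had 1580 and 1580 against 1140 and 1120 (-0.48 ± 0.041; adjusted p = 2.24e-05). The fall of RPL11 was smaller than the members' median and that of RPL5 larger. RPL23 (1020 and 1080 against 643 and 624; -0.72) and RPL26 (1450 and 1340 against 836 and 830; -0.74), and RPS7, an MDM2 binder (378 and 364 against 210 and 190; -0.89), also fell. RPS27L, although a known p53 target, went from 275 and 264 to 157 and 167 (-0.74 ± 0.048; adjusted p = 5.1e-06). RPS27 stood at 2.05 and 0.523 against 3.72 and 1.49 and was not called.

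Other members with roles of their own followed. RPS6, the substrate of S6 kinase, had 1470 and 1460 against 917 and 959 (-0.65), and RPSA, also known as the laminin receptor, 190 and 206 against 107 and 105 (-0.90). RPL22 had 40.4 and 43.5 against 24.7 and 23.5 (-0.77). RPS14, deleted in 5q- syndrome, had 1920 and 1960 against 1560 and 1420 (-0.38). In the acidic stalk, which recruits elongation factors, RPLP0 (544 and 591 against 381 and 361; -0.61) and RPLP2 (1600 and 1580 against 1250 and 1120; -0.43) fell, while RPLP1 had 1830 and 1800 against 1960 and 1730 and was not called (0.02; adjusted p = 0.757). The 3 stalk genes therefore did not all move together in this fit.

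RPS19, the gene most often mutated in Diamond-Blackfan anaemia, rose from 1410 and 1360 to 2430 and 2210 FPKM (0.74 ± 0.057; adjusted p = 1.24e-05). RPS20 rose from 823 and 837 to 1040 and 975 (0.28 ± 0.047; adjusted p = 0.000934), and RPL36 from 2280 and 2220 to 2630 and 2660 (0.23 ± 0.044; adjusted p = 0.00164). In each, both P53 libraries were above both controls. Besides RPLP1 and RPS27, the members not called included RPL28 (416 and 432 against 465 and 446; adjusted p = 0.0664), RPL13 and RPS15.

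Genes around the family also moved. All 6 related genes outside the symbol rule fell, with a median of -0.58, led by RPL22L1, the paralog of RPL22, from 67.6 and 68.8 to 22 and 22.2 (-1.58). Of 17 other translation genes with TOP mRNAs, 14 fell and 3 rose, with a median of -0.70. The falls included EIF3E (-1.61), NPM1, a nucleolar chaperone (-1.44), and EIF4B (-1.23), and the rises were EEF1D (0.61), EEF2 (0.32) and BTF3 (0.29). MYC went from 109 and 108 to 25.8 and 23.5 (-2.09 ± 0.056), LARP1 changed by -0.71 and MTOR by -0.52. The part of these regulators in the members' change was not tested. Members with a pyrimidine run within 5 bases of the start had a median of -0.65 (n = 51, 45 lower and 2 higher), and those without one -0.53 (n = 10, 9 lower).

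The p53 shift also touched other short mRNAs. Other genes with transcripts of at most 953 bases had a median of -0.22 and longer ones of -0.09. With the length trend removed 62 members fell and 6 rose, where 44% of all genes were called lower and 39.6% higher. When libraries were rescaled by their median ratio, the median of all genes moved from -0.13 to 0.06, that of members from -0.64 to -0.43, and 62 fell and 6 rose (RPL13, RPL28 and RPLP1 joined RPS19, RPS20 and RPL36), with 54.3% of all calls higher in place of 44.6%. Of all genes, 44.4% were then called higher and 37.5% lower.

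**Figure D2:**
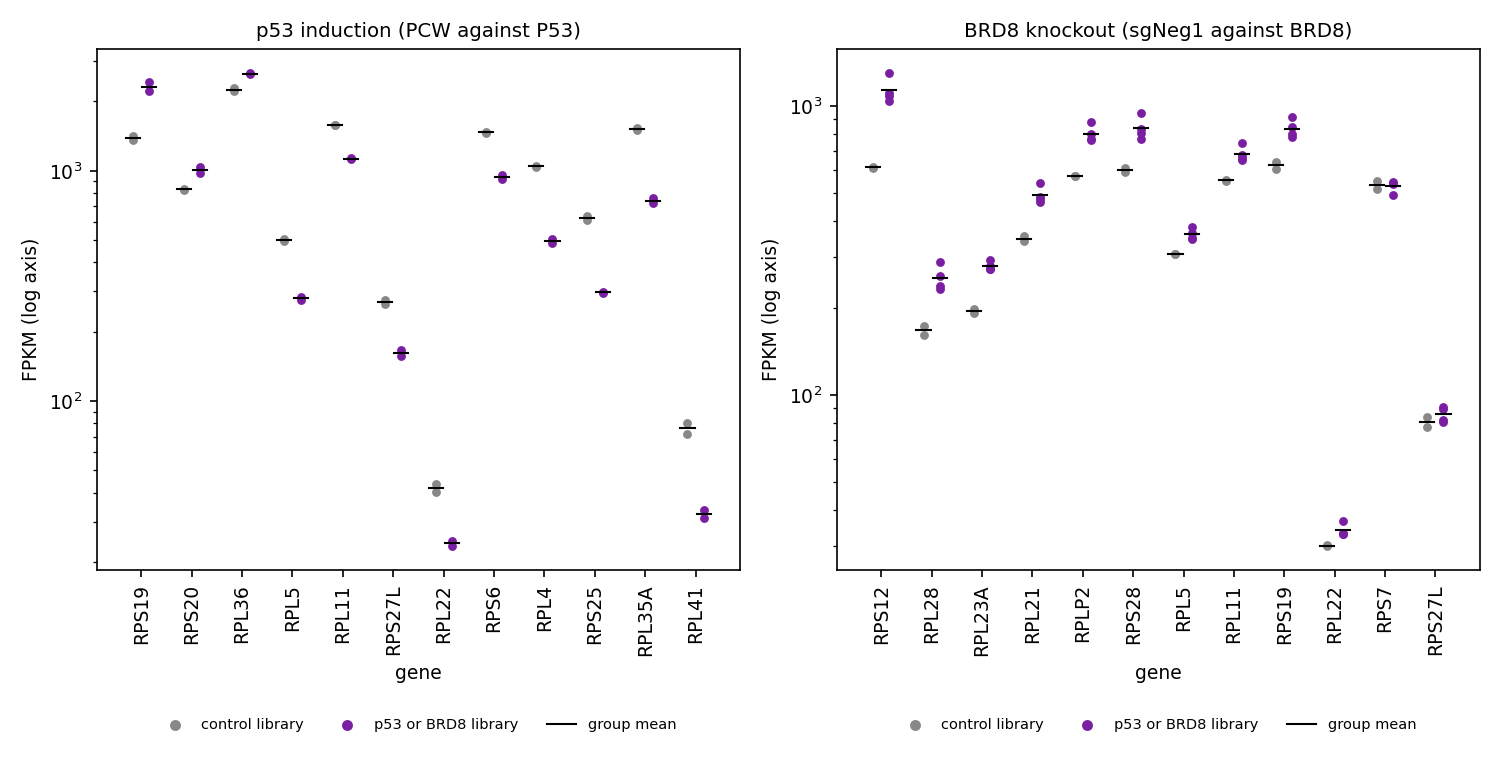
FPKM (log axis) of 12 members in each library of the p53 induction (left) and the BRD8 knockout (right), with grey points for controls, purple points for P53 or BRD8 libraries and short lines for group means. On the left RPS19, RPS20 and RPL36 lie higher in P53 and the other 9 lower. On the right the BRD8 libraries lie above sgNeg1 except in RPS7 and RPS27L, where they overlap.

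Knockout of BRD8, the bromodomain subunit of the complex, went with higher members. BRD8 mRNA was at 13.6 and 13.3 FPKM in sgNeg1, 6.26 and 6.39 with guide 1 and 5.19 and 5.36 with guide 2. Of 78 members tested, 56 rose and 0 fell by limma, where 24.2% of all 8458 genes were called higher and 21.7% lower. An unadjusted limma p under 0.05 was held by 66 members and by 4548 of all genes. All 4 BRD8 libraries exceeded both controls in 69 members and lay below both in 0, against 32.2% and 29.3% of all genes. The medians were 0.27 over members and 0.02 over all genes. The large subunit had 37 of 46 higher (median 0.28) and the small subunit 19 of 32 (0.23).

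RPS12, a small subunit protein used in fly studies of cell competition, had the largest rise, from 611 and 616 FPKM in sgNeg1 to 1110 and 1300 with guide 1 and 1080 and 1040 with guide 2 (0.88 ± 0.089; adjusted p = 6.09e-05). RPL28 went from 161 and 173 to 258 and 289, and 238 and 232 (0.60 ± 0.087; adjusted p = 0.000485). RPL23A, which binds near the exit of the nascent chain, went from 192 and 198 to 273 and 293, and 280 and 273 (0.52 ± 0.058; adjusted p = 0.000103). In these genes the lowest BRD8 library stood well above the higher control. RPL21 (341 and 354 to 483 and 539, and 477 and 465; 0.50) and RPS28 (610 and 592 to 805 and 941, and 834 and 766; 0.47) are among the 10 members with uneven levels. RPL38, known for its part in translating Hox mRNAs in mice, went from 779 and 792 to 1080 and 1180, and 1060 and 1010 (0.46), and RPL8 from 490 and 500 to 655 and 713, and 680 and 655 (0.45).

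All 3 stalk genes rose. RPLP2 had 570 and 571 in sgNeg1 against 765 and 877, and 797 and 763 (0.49). RPLP1, the most abundant member here, had 1450 and 1440 against 1910 and 2230, and 1920 and 1840 (0.45), and RPLP0 443 and 485 against 558 and 627, and 569 and 541 (0.31). Among the genes tied to MDM2 and p53, RPL26 (0.40), RPL11 (0.30 ± 0.069; adjusted p = 0.00592), RPL23 (0.28) and RPL5 (0.23 ± 0.062; adjusted p = 0.0135) rose. RPL5 had 306 and 307 against 345 and 381, and 363 and 348, with no overlap but a gap smaller than that of RPS12. RPS7 had 516 and 550 against 491 and 547, and 540 and 538, and RPS27L 83.6 and 77.2 against 81.8 and 89.4, and 90.9 and 80.6. Both overlapped their controls and were not called (adjusted p = 0.898 and 0.313). RPS19 (0.42), RPS6 (0.33), RPL41 (0.28) and RPL22 (0.17) rose, while RPSA (0.19; adjusted p = 0.0554), RPS14 (0.12; 0.213) and RPS27 (0.10; 0.347) were not called.

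The guides gave alike counts, with 48 members called against sgNeg1 for guide 1 alone and 56 for guide 2 alone. Guide 2 against guide 1 had 0 members called by limma, where 0.0118% of all genes were called higher and 0 lower, with a member median of -0.07. Above 0 there were 5.13% of members, 38.8% of other short genes and 43.8% of longer ones. Without adjustment, 3 members and 950 of all 8458 genes had a limma p under 0.05. The count rests on the control pair: it was 21 without sgNeg1 replicate 1 and 32 without sgNeg1 replicate 2. Without the 10 members of uneven level, 47 of 68 rose. The share of all genes called in the fits by single guide or without a control library is not given here. Those counts therefore describe members only.

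Other TOP mRNAs were also higher in BRD8 knockout. Of 17 translation genes, 13 rose and 1, HNRNPA1, fell, with a median of 0.39. PABPC1, the poly(A)-binding protein, rose by 0.70 and NPM1 by 0.67. Of the 6 related genes outside the symbol rule, 1 rose and 0 fell. MYC went from 2.67 and 2.4 FPKM to 5.27 and 5.83, and 5.79 and 5.18 (0.88), and its part was not tested. Members with a pyrimidine run had a median of 0.28 (39 of 53 higher) and those without one 0.20 (6 of 10). Other short genes had a median of 0.02 and longer ones of 0.01. With the length trend removed 45 members rose and 0 fell, where 22.6% of all genes were called higher and 23.5% lower.

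The BRD8 and p53 comparisons share no library, so their members can be set side by side. Of 76 members tested in both, 48 were higher in BRD8 knockout and lower in p53 induction. Most members were higher in BRD8 knockout (56 of 78) and lower in p53 induction (67 of 76). A large joint count follows from these separate counts alone, and the share of all genes with both calls is not given here. RPS19, RPS20 and RPL36 were higher in both, and 3, RPL28 and RPLP1 among them, were higher in BRD8 knockout and not called in p53 induction. A further 19 fell in p53 induction without a call in BRD8 knockout, and RPL13, RPS15 and RPS27 were called in neither. Across the 76 members the sizes of the 2 changes had a Pearson's r of 0.03 and a Spearman's rho of -0.02, a description over genes that share libraries and are not independent. MDM2 and CDKN1A were higher in both comparisons (0.77 and 0.38 in BRD8 knockout), and MYC was higher in BRD8 knockout and lower in p53 induction.

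**Figure D3:**
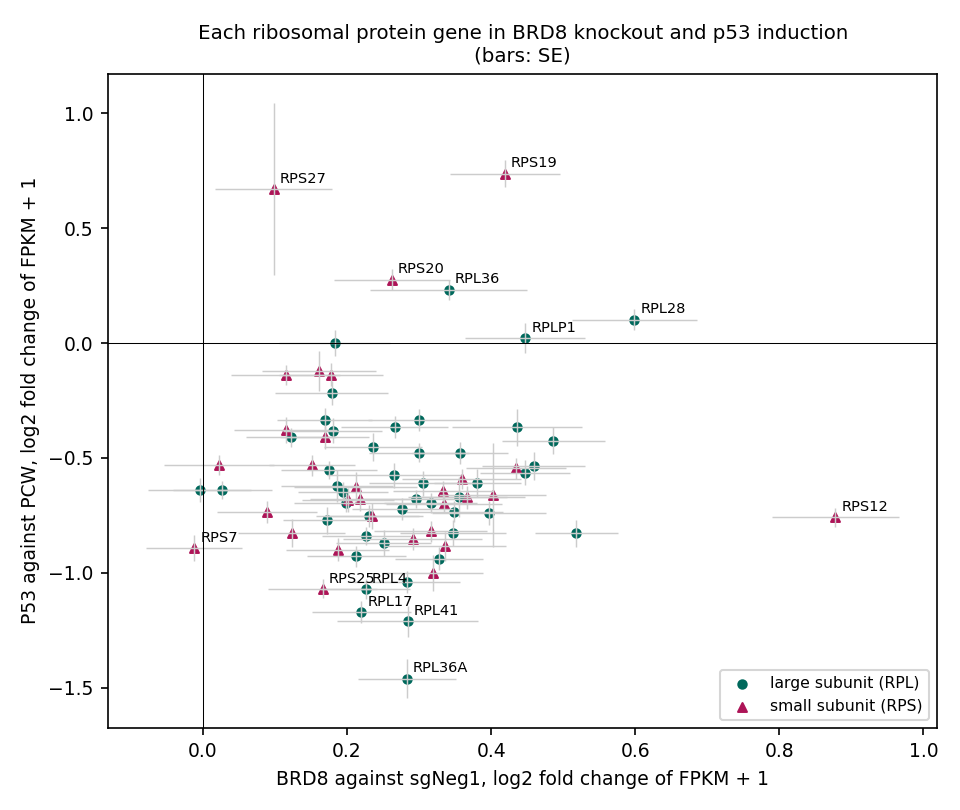
Log2 fold change of FPKM + 1 of each member in BRD8 knockout (horizontal) and in p53 induction (vertical), with SE bars, circles for large and triangles for small subunit genes. One member is not drawn, and RPS27 rests on values below 4 FPKM in the p53 libraries. Most points lie right of 0 and below 0, and RPS19, at 0.42 and 0.74, lies highest.

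TRRAP, the scaffold subunit that binds transcription factors, had members on 1 side. TRRAP mRNA itself stood at 7.79 and 9.91 FPKM in sgNeg2 and 6.35 and 8.22 in its knockout libraries and was not called. All 77 members had a log2 fold change below 0, with a median of -0.50 against -0.02 over all genes, and both TRRAP libraries lay below both controls in 55 members (29.3% of all genes) and above both in 0 (28.7%). By limma 5 fell and 0 rose, at 6.49% of members, where 7.71% of all genes were called lower and 6.54% higher. The called share is thus near that of all genes. An unadjusted limma p under 0.05 was held by 35 members and by 3516 of all 11382 genes.

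The 5 called members were 4 of the large subunit and 1 of the small. RPL13A, known for silencing translation in interferon-treated cells, had 557 and 431 FPKM in sgNeg2 against 323 with guide 1 and 187 with guide 2 (-0.99 ± 0.26; adjusted p = 0.0222). RPL10, an X-linked protein that completes the large subunit, had 187 and 164 against 123 and 69.4 (-0.92 ± 0.23; adjusted p = 0.0187). In both, guide 2 was the lower library. RPL12, a stalk-base protein, had 285 and 229 against 171 and 116 (-0.85 ± 0.22), and RPL3, which lies near the peptidyl transferase centre, 842 and 750 against 598 and 439 (-0.63 ± 0.20). RPL5 stood at -0.46 (adjusted p = 0.156) and RPL11 at -0.40 (adjusted p = 0.293). MYC was higher, with 36.4 and 41.3 against 72.5 and 96.5 (1.09), and its part was not tested.

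The TRRAP call depends on single libraries. Guide 2 stood 0.76 below the section mean over members and guide 1 0.19 below, and without guide 1 there were 30 calls, without guide 2 or without sgNeg2 replicate 1 there were 0, and without sgNeg2 replicate 2 there were 2. With the libraries of this comparison alone 0 members were called. The share of all genes called in these fits is not given here, so the counts describe members only.

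EP400 and TIP60, the ATPase and the acetyltransferase that name the complex, had few called members in their knockouts. Most members had a log2 fold change below 0, 72 of 77 in EP400 and 62 of 77 in TIP60. Both EP400 libraries lay below both controls in 31 members and above both in 1. For TIP60 these numbers were 19 and 3. The share of all genes lying apart in this way is not given here, so these counts describe members only. Above 0 were 6.49% of members in EP400 and 19.5% in TIP60, against 40.9% and 41.3% of other short genes. The median SE of a member was 0.246 in each. In EP400 knockout 0 of 77 were called by limma, where 1.56% of all genes were higher and 2.27% lower. By unadjusted p under 0.05 there was 1 member, and there were 2237 of all 11382 genes. The median was -0.17 against -0.03 over all genes, of whose calls 40.8% were higher, or 53.1% with the length trend removed. In TIP60 knockout 2 members fell and 0 rose, where 26.6% of all genes were lower and 15.4% higher, with medians of -0.21 and -0.09. RPL22, 1 of those 2, had 39.8 and 34.5 against 27.7 and 27.8 (-0.41 ± 0.15; adjusted p = 0.0413). The 2 TIP60 libraries were close to each other and below both controls. RPL28 stood at 808 and 506 against 484 and 394, above both controls but not called (0.55; adjusted p = 0.0825).

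These TIP60 calls are small beside the scaling. With libraries rescaled, RPL15, RPL28 and RPS12 rose and 1 member fell, the median of all genes moved from -0.09 to 0.01 and the share of calls that were higher from 36.7% to 50.1%. Of all genes, 21.4% were then called higher and 21.3% lower. With the libraries of the comparison alone 0 members were called, and leaving out 1 library gave 0 to 4 calls, 0 of them without sgNeg2 replicate 2, 1 without sgNeg2 replicate 1 and 4 without TIP60 guide 2. The share of all genes called in the fits on fewer libraries is not given here, so those counts describe members only. MYC rose in both knockouts, to 159 and 152 FPKM in TIP60 (1.98) and to 65.1 and 66.2 in EP400 (0.74). Directly compared, TIP60 had RPS26 (7.86 and 8.37 against 4.47 and 4.5; 0.73) and RPL28 (808 and 506 against 406 and 371; 0.72) higher than EP400 and RPL36A lower (2.93 and 3.19 against 4.29 and 4.88; -0.46), 2 higher and 1 lower of 77, where 7.82% of all genes were higher and 13.5% lower. These 3 calls were lost without either EP400 library or without TIP60 guide 1.

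RUVBL1 and RUVBL2, the paired AAA+ ATPases of the complex, both had higher RPL41 in their knockouts. It had 49.4 and 49.9 FPKM in sgNeg3, 108 and 121 in RUVBL1 (1.19 ± 0.29; adjusted p = 0.0165) and 92.8 and 101 in RUVBL2 (0.95 ± 0.29; adjusted p = 0.0332). RPS27 rose from 0.395 and 0.463 to 2.54 and 2.88 (1.38; adjusted p = 0.0447) and to 4.11 and 1.57 (1.34; adjusted p = 0.0424), at levels near the limit of detection. These were the 2 called members of 76 in each, with 0 lower, where 12.3% and 13.5% of all genes were higher and 15.5% and 19.9% lower. The 2 comparisons share the sgNeg3 pair and are not independent. RPS19 stood at 2080 and 2360 in RUVBL1 and 1700 and 1830 in RUVBL2 against 1340 and 1230, above both controls in each but not called (0.79, adjusted p = 0.056; 0.46, adjusted p = 0.221).

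The medians of the members pointed different ways, 0.17 in RUVBL1 and -0.17 in RUVBL2, against -0.02 and -0.05 over all genes. RPLP0 had 463 and 473 in sgNeg3, 420 and 443 in RUVBL1 and 291 and 317 in RUVBL2, and RPL28 457 and 444, 516 and 599, and 296 and 354. Directly compared, RUVBL2 had 0 of 76 members called against RUVBL1 by limma, where 0.00904% of all genes were lower and 0 higher. Without adjustment, 6 members and 594 of all 11063 genes had a limma p under 0.05. Both RUVBL2 libraries lay below both RUVBL1 libraries in 69 members and above both in 0, against 29.8% and 16.4% of all genes, with a median of -0.34 against -0.03. RPL28 had the largest difference (-0.78; adjusted p = 0.646). With the libraries of each comparison alone, 35 members rose and 2 fell in RUVBL1, and 6 rose and 28 fell in RUVBL2. In that setting 7 were lower in RUVBL2 than in RUVBL1. The share of all genes called in these fits is not given here, so the counts cannot be set against it. Without any 1 of its libraries RUVBL1 had 0 calls, and RUVBL2 had 1 without guide 2 and 0 otherwise.

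H2AZ knockout, which targets the histone variant that the complex exchanges, had 0 of 76 members called by limma. Of all genes, 2.6% were higher and 3.42% lower. Without adjustment, 1 member (RPL34 at -0.44) and 2338 of all 11087 genes had a limma p under 0.05. The median was -0.01 over members and over all genes, and the 4 H2AZ libraries overlapped the sgNeg4 pair in all 76, while 13.4% of all genes lay wholly above and 15.4% wholly below. RPL11, for example, had 3370 and 2140 FPKM in sgNeg4 against 2770 and 2490 with guide 1 and 2340 and 2720 with guide 2. The control libraries lay on both sides of the knockout ones and differed from each other by a member median of 0.53. The call count was 3, all higher, without sgNeg4 replicate 1 and 6, all lower, without sgNeg4 replicate 2. The share of all genes called without a control library is not given here, so those counts describe members only. Guide 2 against guide 1 had 0 called members, where 0 genes of all were called. Without adjustment, 1 member and 301 of all 11087 genes had a limma p under 0.05.

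Of the remaining 9 knockouts, 0 had a called member by limma. The members with an unadjusted p under 0.05 numbered 2 in ACTL6A, 1 in MRGBP, 1 in ING3, 1 in DMAP1 and 4 in GAS41. Among all 11382 genes tested, 1776 did so in ACTL6A, 1459 in MRGBP, 1085 in ING3, 1021 in DMAP1 and 1923 in GAS41. There were 2 such members in MEAF6 and 1 in VPS72, with 415 and 402 of all genes. MORF4L1 had 0 and MORF4L2 had 1, with 85 and 230 of all 11063 genes. Over all genes 0.22% were called higher and 0.562% lower in ACTL6A, 0.176% and 0.0879% in MRGBP, 0.0264% and 0 in ING3, 0.58% and 0.36% in GAS41, and 0 in the other 5. Of the 30 MRGBP calls over all genes 66.7% were higher, against 86.7% of 15 calls with libraries rescaled. In GAS41, the reader of acylated histones encoded by YEATS4, the median was 0.24 against -0.03, and 42 members lay above both controls and 1 below, where all genes gave 24.4% and 29.4%. RPL28 stood there at 612 and 730 FPKM against 484 and 394 (0.61; adjusted p = 0.216). MORF4L2 had 76 of 76 members above 0 (median 0.27), but its libraries differed from each other by 0.75. MEAF6 and VPS72, with 1 library each, had medians of -0.12 and 0.18 and take their spread from the other libraries.

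**Figure D4:**
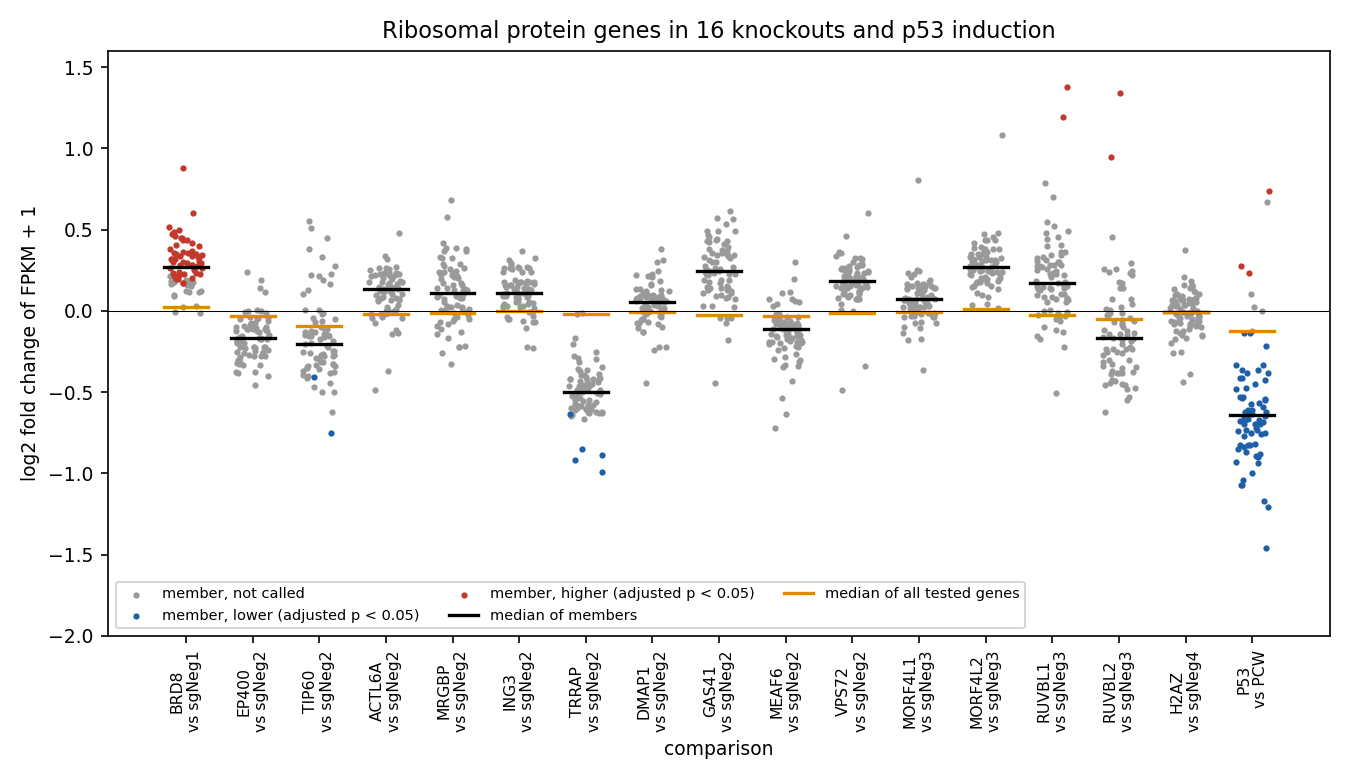
Log2 fold change of FPKM + 1 of each member (points) in 16 knockouts and p53 induction, red where higher and blue where lower at an adjusted p under 0.05, with the median of members (black) and of all tested genes (orange). One member is not drawn, and RPS27 rests on a few FPKM outside BRD8. P53 holds 67 blue points, BRD8 56 red ones, and TRRAP lies below 0 throughout.

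In several groups the members moved as a block between libraries of the group. The median difference between the first and the second library over members was -0.75 in MORF4L2, 0.63 in MRGBP, 0.54 in TRRAP, 0.53 in sgNeg4, 0.42 in TIP60 and 0.30 in sgNeg2, where 71 of 72 members lay on 1 side. It was -0.04 in sgNeg1, 0.04 in sgNeg3, -0.02 in PCW and 0.06 in P53. Other short genes shifted by -0.37 in MORF4L2, 0.33 in MRGBP and 0.13 in TRRAP. The median residual SD of members was 0.26 in the sgNeg2 section, 0.28 with sgNeg3 and 0.23 with sgNeg4, against 0.16, 0.15 and 0.14 for other genes, and 0.085 and 0.058 in the BRD8 and doxycycline sections, against 0.085 and 0.064. The median SE of a member's fold change was 0.25 in the sgNeg2 comparisons and 0.05 in p53 induction.

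**Figure D5:**
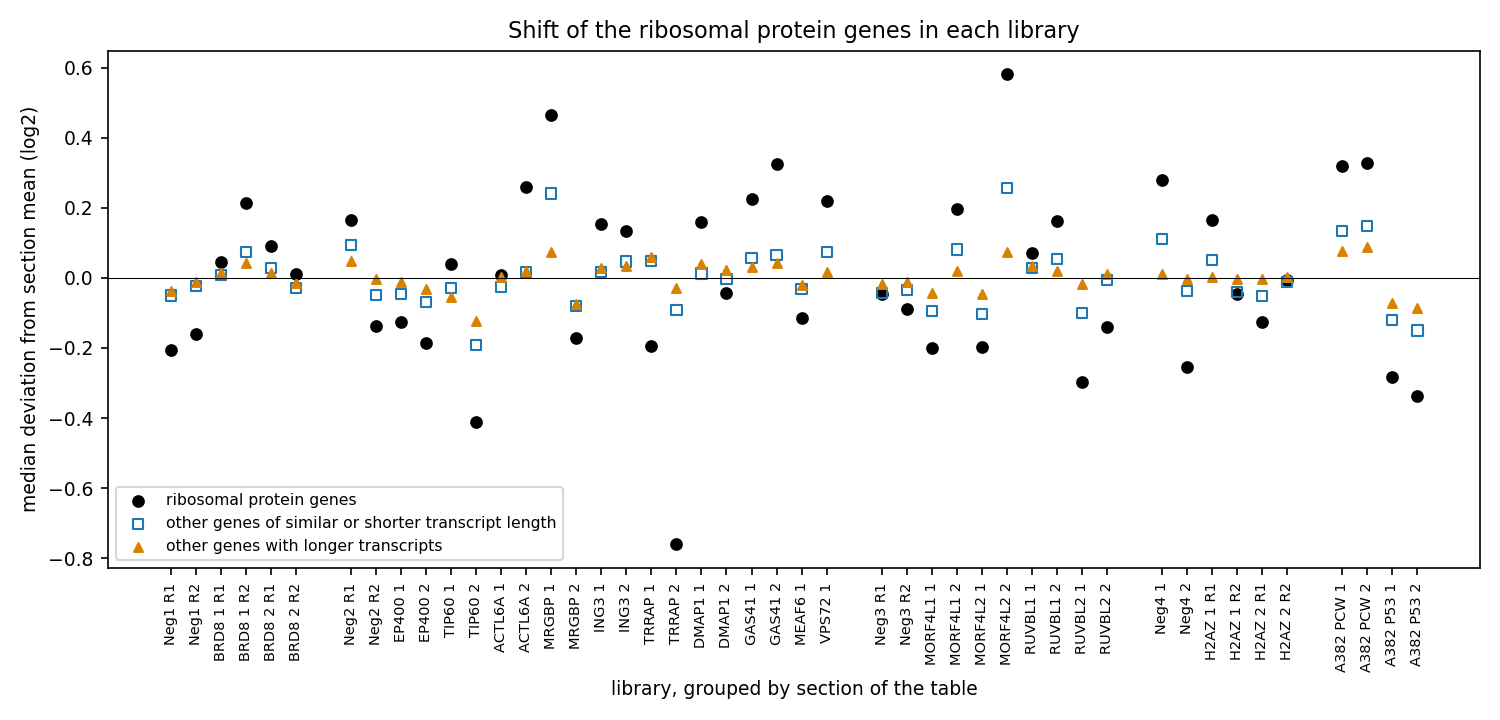
Median log2 deviation from the section mean in each library (horizontal, by section) for members (black circles), other genes of similar or shorter transcript length (blue squares) and other genes with longer transcripts (orange triangles). TRRAP 2 lies lowest at -0.76 and MORF4L2 2 highest at 0.58. In most libraries, though not all, the black points lie farther from 0 than the others.

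Across the 17 comparisons, RPL41 was called higher in 3 and lower in 1. RPL10, RPL12, RPL13A, RPL22 and RPL3 were each called higher in 1 and lower in 2, and RPL13 and RPS15 in none. Knockouts of a section share their controls, so these counts are not independent.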

How the data were processed

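The authors deposited 1 table of FPKM values; TopHat2, Cufflinks, Cuffdiff and hg19 are named per the submitters' processing notes, with roles and versions not given in the sources used here. The table holds no counts. Members and gene lists were chosen with earlier results of these data known. Groups came from the labels, and 0 columns were unmapped. Values were analysed as log2(FPKM + 1), which understates changes at low levels. A gene entered the fit of a section when 2 or more libraries there reached 1 FPKM. The fit used limma 3.58.1 in R 4.3.3 with a level for each target and moderated, intensity-dependent variances. Tests were two-sided, and calls needed a p below 0.05 after Benjamini-Hochberg adjustment across every gene in the fit. Errors are SE. The scripts were tested on simulated data. Python 3.11.15 with pandas 2.3.3 handled levels and promoter windows (RefSeq, 250 bases before to 50 after the start). Named members were the up to 8 called ones with the largest rise and fall in the main comparisons (5 FPKM or more on average in the higher group), and members with known roles. Alternatives covered pseudocount, filter, samples in the fit, replicate block, rescaling, length trend, intensity trend and each library left out.

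The replicate numbers were not taken as pairs, since not every correlation of same-numbered deviations was above 0.1. They ran from -0.47 to 0.58 in the sgNeg2 section (median 0.018) and from -0.081 to 0.72 with sgNeg3 (median 0.36). Transcript lengths (GENCODE 29) were found for 96.9% of genes and all members. Processed pseudogenes and overlapping readthrough genes make values of RPL36A, RPL17 and RPS10 uncertain. Values of some genes are not reported here, although they count in the totals.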

Additional observations from a re-analysis of the deposited data

Results flagged for a closer look

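RPL22, a protein of the large subunit that also binds RNA outside the ribosome, had 32.9, 33.1, 33.4 and 36.6 FPKM in the 4 BRD8 libraries. The gap below the highest, guide 1 replicate 2, was 0.863 of the range, above Dixon's 95% critical value for 4 samples. It was the 1 group of 27 checked that passed, and chance passes about 1 in 20.

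The column that carries the labels of both MEAF6 guide 2 and VPS72 guide 2, which entered no comparison, had a summed member FPKM of 82391. The sgNeg2 libraries had 48968 and 61063. Which label is right was not tested.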

How the results depend on the processing

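The p53 count of 70 called members stayed between 68 and 72 under every alternative run on all members, and the BRD8 count of 56 between 41 and 60 under every alternative run on all its libraries. The fits by single guide and those without the 10 members of uneven level were chosen after seeing the data. Counts of called members moved by over 1.5 times as follows. With the libraries of the comparison only, EP400 had 1, TIP60 0, TRRAP 0, RUVBL1 37, RUVBL2 34, TIP60 against EP400 1, RUVBL2 against RUVBL1 7 and the remaining knockouts 5. With libraries rescaled, TIP60 had 4, TRRAP 11, RUVBL1 4 and RUVBL2 6. With the length trend removed, TIP60 had 1 and TRRAP 3. Without the filter on low values, TRRAP had 2, RUVBL1 1 and RUVBL2 0, and with a filter of 5 FPKM RUVBL2 had 1. Without the intensity trend, RUVBL1 and RUVBL2 had 4 each. Leaving out 1 library in turn gave 21 to 60 in BRD8, 0 to 4 in TIP60, 0 to 30 in TRRAP, 0 in RUVBL1, 0 to 1 in RUVBL2, 0 to 6 in H2AZ, 0 to 4 in TIP60 against EP400 and 0 to 24 in the remaining knockouts. The cause was not tested in any of these, and the share of all genes called is not given beside these counts.

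With the replicate number as a block, counts were 49 in BRD8, 70 in p53 induction, 5 in TIP60, 7 in TRRAP, 5 in RUVBL1 and 4 in RUVBL2, and 0 in EP400 and H2AZ. Of all genes, 22.7% were then called higher and 20.6% lower in BRD8, and 37.5% and 46.6% in p53 induction. These shares were 15.8% and 27.3% in TIP60, 7.21% and 9.01% in TRRAP, 17.1% and 20.4% in RUVBL1, and 17.1% and 24.4% in RUVBL2. They were 1.67% and 2.71% in EP400, and 2.78% and 3.78% in H2AZ. The numbers name libraries and were not taken as pairs. For single named members, all 276 alternatives in p53 induction kept the call, as did 263 of 288 in BRD8, 37 of 60 in TRRAP, 11 of 24 in TIP60, 8 of 12 in RUVBL1 and 7 of 12 in RUVBL2. The direction of a named member was reversed in none. Depth limits are unequal: 1 FPKM stood for 4.22 to 7.5 fragments per kilobase in the sgNeg4 section and 16.8 to 21.1 in the BRD8 section, and a group with 1 library left is assumed to vary like the others.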

Other observations

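RPL22L1, the paralog of RPL22, was followed because the pair is known for cross-regulation. In RUVBL1 knockout RPL22L1 had 30.3 and 23.9 FPKM and in RUVBL2 knockout 21.9 and 29.5, against 47.4 and 47.6 in sgNeg3, below both controls in each but not called by limma (adjusted p = 0.0818 and 0.0537). RPL22 had 32.9 and 36.5, and 28 and 32.2, against 40.2 and 35.9. In H2AZ knockout RPL22L1 stood between 72.4 and 82.6 FPKM against 93.4 and 60.9.

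Other promoter motifs were searched on both strands in the RefSeq windows of 300 bases, with overlaps allowed. A gene counted if any of its windows held the motif. CCGGAAG, the core bound by ETS factors such as GABPA, was in 23 of 64 members (35.9%) and 12.2% of all genes. AAGATGGCG, which YY1 binds, was in 5 (7.81%) and 2.14%. GGGCGG, the GC box, was in 38 (59.4%) and 48.3%, and TATAAA in 6 (9.38%) and 14%. From 60 bases before to 50 after the start, TATAAA was in 5 members (7.81%) and 5.96% of all genes, the other way round. In that part CCGGAAG was in 18.8% of members and 7.38% of all genes. AAGATGGCG was there in 6.25% and 1.52%, and GGGCGG in 35.9% and 31.8%. These are letter matches and show no binding.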
